A study of Mus musculus with 6 samples.

Results

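Genes of the lipid droplet surface and of droplet lipolysis were read out in mouse liver with and without a constitutively active form of the antiviral transcription factor IRF3. The set was a list of 10 genes named by symbol, Plin2, Plin3, Plin4, Plin5, Cideb, Cidec, Pnpla2, Pnpla3, G0s2 and Abhd5. They were chosen by function, but with earlier results of these data known. All 10 had a row among the 20894 genes of the table, and all 10 passed the filter on low counts that left 10802 genes for testing. All 6 liver samples came from Irf3LSL-2D mice, which carry an Irf3-2D allele behind a loxP-stop-loxP cassette. In the IRF3-2D group (3 samples) the mice received AAV8-TBG-Cre, an adeno-associated virus in which the hepatocyte promoter TBG drives Cre. In the Ctrl group (3 samples) they received AAV8-TBG-GFP, so the controls carried the same allele and a virus of the same type. Mice of both groups were given 3 g/kg of ethanol into the peritoneum and their livers were taken 2 h later, so there is no group without ethanol. Because no group had Cre without the allele, active IRF3 and the difference between Cre and GFP cannot be told apart here. RNA of whole liver was sequenced. Replicates are numbered in the labels, but nothing says whether a number stands for 1 mouse, so a p-value speaks only of the spread between these samples, part of which may be technical.

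Hepatocytes store triglyceride in droplets, a core of neutral lipid under a single layer of phospholipid that carries coat proteins. The perilipins (Plin2 to Plin5) cover that surface and govern the access of lipases, and the CIDE proteins (Cideb and Cidec) act in droplet growth and in the transfer of lipid to lipoprotein particles. Breakdown starts with adipose triglyceride lipase, the product of Pnpla2, which needs the coactivator ABHD5 (Abhd5) and is inhibited by the product of G0s2. Pnpla3 encodes a related droplet protein that binds ABHD5. Several of these genes are known targets of the nuclear receptor PPARalpha in liver, which binds DNA with a retinoid X receptor.

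Of the 10 genes, G0s2 and Plin5 fell in IRF3-2D liver, Plin2 rose, and 7 did not pass the test. G0s2, a lipase inhibitor, was 5.43-fold lower, and Plin5, a perilipin of oxidative tissues that holds droplets close to mitochondria, was 1.80-fold lower. Plin2, a perilipin of nearly all cells that store lipid, was 12.6-fold higher but from very few counts. The lipase gene Pnpla2 and its coactivator gene Abhd5 stood within 1.22-fold and 1.14-fold of Ctrl, and neither was called. The test was edgeR's quasi-likelihood F-test with trimmed-mean (TMM) scaling, and a gene is called here when its p, adjusted by Benjamini-Hochberg over all genes tested, is under 0.05. By this rule 13.2% of all genes tested were called higher, 13.1% lower and 26.3% in either direction, so 3 calls among 10 genes is close to the share over the whole table. The median log2 fold change of the 10 genes was -0.36, beside 0.03 over all genes tested. Levels are given in CPM, counts scaled to the size of each library with its TMM factor, and all fold changes are IRF3-2D against Ctrl.

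The scaling bears on the small changes. The 20 most abundant genes held 33.5% to 35.7% of the counts in Ctrl libraries and 22.5% to 24.5% in IRF3-2D libraries, which had totals of 12054096 to 13606973 counts against 13940893 to 14830629 in Ctrl. With library totals alone in place of TMM, the median of all genes tested moved to 0.49 and that of the 10 genes to 0.10 on the log2 scale, and 4500 genes were called higher and 571 lower, in place of 1426 and 1418. Irf3 served as a check of the labels: its level was 49.8 ± 9.35 CPM (SD, n = 3) in Ctrl against 120 ± 15.3 CPM (SD, n = 3) with the active allele, and the groups did not overlap. Hepatocyte markers also moved, 7 of the 8 tested being called lower and Ttr higher (5 lower and 1 higher with library totals alone). The summed level of the list, most of it from Alb, ran from 139774 to 187940 CPM in Ctrl and from 72138 to 84897 in IRF3-2D libraries. In whole tissue, fewer cells of a type and less RNA per cell cannot be told apart.

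The stretches of 250 bases before the RefSeq transcription start (build GRCm38.p6) are shown for the 3 genes called by edgeR with TMM scaling. A gene that was not called may have changed too. All 3 genes lie on the minus strand, and the sequences are written 5′ to 3′ along it. The G0s2 stretch is chr1:193273189-193273438, that of Plin5 is chr17:56117549-56117798 and that of Plin2 is chr4:86670060-86670309. Capitals mark each match, on either strand, to AGGTCA, the core element that nuclear receptors such as PPARalpha bind.
G0s2: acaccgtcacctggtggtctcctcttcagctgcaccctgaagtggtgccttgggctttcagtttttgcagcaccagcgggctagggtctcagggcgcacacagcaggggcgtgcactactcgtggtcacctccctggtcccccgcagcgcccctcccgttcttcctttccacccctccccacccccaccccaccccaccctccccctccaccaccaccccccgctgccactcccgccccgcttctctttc
Plin5: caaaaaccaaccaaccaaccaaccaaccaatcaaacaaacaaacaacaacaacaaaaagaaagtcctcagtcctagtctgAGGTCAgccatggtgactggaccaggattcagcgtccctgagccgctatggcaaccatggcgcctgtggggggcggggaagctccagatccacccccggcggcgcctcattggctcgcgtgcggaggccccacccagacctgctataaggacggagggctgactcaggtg
Plin2: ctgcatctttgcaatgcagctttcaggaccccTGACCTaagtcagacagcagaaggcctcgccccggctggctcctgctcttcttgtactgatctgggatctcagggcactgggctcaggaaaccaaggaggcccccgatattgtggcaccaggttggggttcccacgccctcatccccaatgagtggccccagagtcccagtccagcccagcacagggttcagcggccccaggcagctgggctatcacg
Plin5 had 1 such element in the stretch shown, on the coding strand, with its first base at -170 from the start, and none in its second RefSeq stretch, which is not shown because the start farthest upstream was taken for each gene. Plin2 had 1, on the opposite strand, at -218. No match was found in the G0s2 stretch. All 10 genes had at least 1 of the 12 stretches in RefSeq, and among the others only Abhd5 held the element, at -69. The element occurred in 14.0% of all 32851 promoter stretches of this length. Its direct repeat, AGGTCANAGGTCA, which PPARalpha and its partner bind, occurred in 0.0335% of all stretches, and the interferon-response core GAAANNGAAA in 2.98%. Neither was found in a stretch of the 10 genes, searched on both strands, and the repeat contains the single element. With shares this low, no match was likely in 12 stretches whatever the genes, so the absence says little about them. A match, or the lack of one, is a description of letters and not of binding.

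G0s2 (ENSMUSG00000009633, chromosome 1, 193272161 to 193273217, minus strand, GENCODE M21 on GRCm38) has 1 annotated transcript and shares none of its 31-base words with other genes. Ctrl libraries held 202, 160 and 250 counts of it and IRF3-2D libraries held 46, 40 and 52. In CPM these were 16.5, 13.5 and 19.5 against 2.98, 2.71 and 3.41. Every IRF3-2D library lay well below every Ctrl library, and the 3 IRF3-2D values were close together. The log2 fold change was -2.44 (SE 0.21, 95% interval -2.94 to -1.94, adjusted p = 0.000374 by edgeR). The call held in each of the 6 fits that left out 1 library, and with library totals alone the log2 fold change was -2.0.

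Markers of fat cells moved the same way as G0s2, a gene that adipocytes also express. Of 6 adipocyte markers 4 were tested, and edgeR called 3 lower and 0 higher (0 were higher at an unadjusted p under 0.05, and 0 by DESeq2 or limma-voom). Adipoq, the adipocyte hormone adiponectin, had 14, 27 and 17 counts in Ctrl and 5, 3 and 5 in IRF3-2D libraries. The summed level of the 6 markers was 23.1 to 33.4 CPM in Ctrl against 13.1 to 15.4 in IRF3-2D libraries, most of it from Fabp4, which endothelial cells express too. Of 7 endothelial markers tested, edgeR called 3 lower and 0 higher (0 were higher at an unadjusted p under 0.05, and 0 by DESeq2 or limma-voom). The endothelial count fell to 1 without any 1 of the Ctrl libraries or IRF3-2D replicate 1, and to 2 without IRF3-2D replicate 2. Scaled by library totals alone, 2 adipocyte markers were called lower, without Fabp4 (log2 fold change -0.42), and 1 endothelial marker was called higher and 0 lower (1 was lower at an unadjusted p under 0.05). Over all 10802 genes tested, 13.1% were called lower with TMM, and 571 were called lower and 4500 higher with library totals. Retn was at 0 in all libraries, and Lep was at 0 in all but Ctrl replicate 2, which had 3 counts. The calls of Adipoq and Cfd were lost without single libraries: that of Adipoq without Ctrl replicate 2 or IRF3-2D replicate 1 or 2 (log2 fold change -2.53 to -2.08), and that of Cfd without any library but Ctrl replicate 1 (-1.74 to -1.43). The part of adipocyte RNA in the fall of G0s2 was not tested.

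Pnpla2, the lipase that the G0s2 product inhibits (ENSMUSG00000025509, chromosome 7, 141455198 to 141460743, plus strand), had levels of 44.2, 36.3 and 46.0 CPM in Ctrl and 47.3, 53.4 and 53.4 in IRF3-2D libraries. All 3 IRF3-2D values were above all 3 Ctrl values, by a margin that is small beside the spread within groups. The log2 fold change of 0.28 (95% interval 0.02 to 0.55) was not called (adjusted p = 0.107 by edgeR), while with library totals alone it was 0.73 and called (adjusted p = 0.00377). Abhd5, the coactivator (ENSMUSG00000032540, chromosome 9, 122351608 to 122381524, plus strand), had 41.3, 46.1 and 44.8 CPM in Ctrl and 34.3, 39.5 and 41.8 in IRF3-2D libraries. Its groups overlapped and its log2 fold change was -0.19 (95% interval -0.43 to 0.04), turning to 0.26 with library totals alone. Exons of Abhd5 overlap the antisense gene A730085K08Rik, and whether the counting used strand is not given in the sources used here.

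A ratio of counts within a library does not depend on the scaling between libraries. The pairs were chosen with earlier results of these data known, so a ratio to G0s2 is no separate support for its fall. Pnpla2 counts were 2.68, 2.70 and 2.36 times those of G0s2 in the Ctrl libraries and 15.9, 19.7 and 15.7 times in the IRF3-2D libraries. The lowest IRF3-2D ratio was thus far above the highest Ctrl ratio, and the mean difference was 2.72 on the log2 scale. For Abhd5 to G0s2 the ratios were 2.50, 3.42 and 2.29 in Ctrl and 11.5, 14.6 and 12.3 in IRF3-2D libraries, with no overlap. Transcripts of lipase and coactivator therefore stood higher against those of G0s2 in every IRF3-2D library. Transcripts of Hilpda, another inhibitor of this lipase, moved the other way in value, without a call by edgeR. Hilpda had 60, 49 and 59 counts in Ctrl and 145, 131 and 81 in IRF3-2D libraries. These ratios are a description of RNA counts, and protein or lipase activity was not measured in these files.

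**Figure D1:**
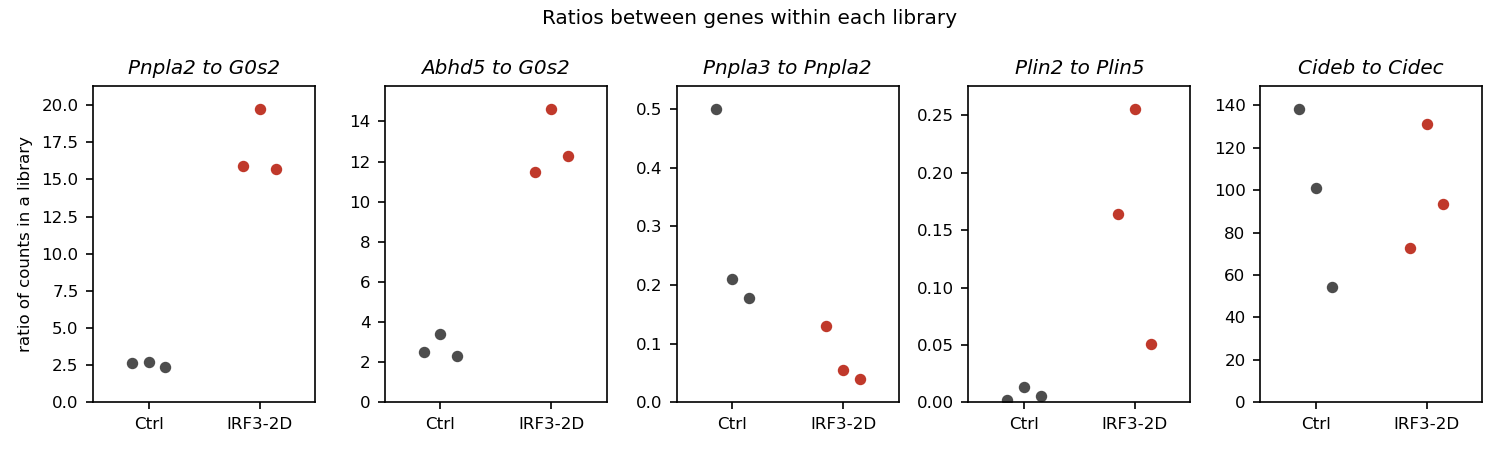
Ratios of the counts of 5 pairs of genes within each library (vertical axes start at 0, 1 point per library, 3 libraries per group). The Pnpla2 to G0s2 ratio sits at 2.36 to 2.70 in Ctrl and at 15.7 to 19.7 in IRF3-2D libraries, while the Cideb to Cidec ratio overlaps between the groups.

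Pnpla3, the droplet relative of the lipase (ENSMUSG00000041653, chromosome 15, 84167837 to 84187236, plus strand), had 22.1, 7.65 and 8.21 CPM in Ctrl and 6.21, 2.91 and 2.16 in IRF3-2D libraries. Ctrl replicate 1 stood far above the other two Ctrl libraries, and the lowest Ctrl value was close to the highest IRF3-2D value, although the groups did not overlap. The log2 fold change of -1.74 (SE 0.55, 95% interval -3.05 to -0.44) just missed the threshold (adjusted p = 0.0561 by edgeR). Without Ctrl replicate 1 it was -1.07, a fold of 2.1 in place of 3.35, with adjusted p = 0.15. Without IRF3-2D replicate 1 it was -2.32 and called (adjusted p = 0.0433), and it was also called with DESeq2 (-1.78, adjusted p = 0.00549). An exon of the predicted gene Gm49513 overlaps Pnpla3 on the same strand, and 8.37% of the 31-base words of Pnpla3 occur in other genes. The Pnpla3 to Pnpla2 ratio of counts was 0.499, 0.211 and 0.178 in Ctrl and 0.131, 0.0545 and 0.0405 in IRF3-2D libraries, with no overlap.

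Plin5 (ENSMUSG00000011305, chromosome 17, 56111601 to 56117596, minus strand) had 146, 118 and 118 CPM in Ctrl and 58.3, 73.6 and 80.1 in IRF3-2D libraries. All 3 IRF3-2D values lay below the lowest Ctrl value. The log2 fold change was -0.85 (SE 0.15, 95% interval -1.19 to -0.51, adjusted p = 0.00586 by edgeR), and the call held in each of the 6 fits that left out 1 library. With library totals alone it was -0.40 and no longer called (adjusted p = 0.0668). Beside the median of all genes tested, which was 0.03 with TMM and 0.49 with library totals, Plin5 stood low under both scalings.

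Plin2 (ENSMUSG00000028494, chromosome 4, 86648386 to 86670060, minus strand) was listed at 4, 19 and 8 counts in Ctrl and at 148, 277 and 62 counts in IRF3-2D libraries. In CPM these were 0.327, 1.60 and 0.625 against 9.57, 18.8 and 4.06. The groups did not overlap, but within each group the highest value was over 4 times the lowest (4.89 in Ctrl and 4.63 in IRF3-2D). The log2 fold change was 3.66 (SE 0.74, 95% interval 1.92 to 5.40, adjusted p = 0.0112 by edgeR). Without IRF3-2D replicate 2 it was 3.00, a fold of 8.0, and without Ctrl replicate 2 it was 4.47, a fold of 22.2, with both still called. With limma-voom it was 3.62 and not called (adjusted p = 0.0737).

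Plin2 is known as the main perilipin of hepatocytes, yet per kb of transcript it had the lowest Ctrl level of the 10 genes. It has 8 annotated transcripts, of which 4 are coding and 551 to 1888 bases long, and 5.05% of its 31-base words occur in other genes. The counts are estimates per gene made with a transcript-based tool, and how transcripts were summed is not given in the sources used here. Other genes with low listed values in these libraries include Pdgfrb, a receptor of stellate cells at 0 in all 6, and Cd68, a macrophage gene with at most 2 counts, although other markers of both cell types were counted. A listed value of Plin2 may therefore cover only part of its RNA, and the part of this in its rise was not tested. Some macrophage markers rose too: edgeR called 3 of the 9 tested higher and 0 lower (0 were lower at an unadjusted p under 0.05, and 0 by DESeq2 or limma-voom). Over all genes tested 13.2% were called higher and 13.1% lower. Adgre1 (log2 fold change -0.56) and Csf1r (-0.12) stood lower in value and were not called. The summed level of the 10 macrophage markers was 400 to 447 CPM in Ctrl against 472 to 675 in IRF3-2D libraries. Among 7 tested stellate cell markers edgeR called 1 lower and 0 higher (1 was higher at an unadjusted p under 0.05; DESeq2 called 1 higher and limma-voom 0), and the list had a summed level of 221 to 291 CPM in Ctrl against 187 to 257 in IRF3-2D libraries. Leaving out 1 library moved the macrophage count: it was 5 without IRF3-2D replicate 3, 2 without Ctrl replicate 1, and 1 without any of the other libraries. By library totals alone 6 macrophage markers were called higher, and 1 stellate cell marker was called higher and 0 lower (0 were lower at an unadjusted p under 0.05). Of all 10802 genes tested, 4500 were then called higher and 571 lower. The part of these cells, which also hold lipid droplets, in the rise of Plin2 was not tested.

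The other perilipins of the set were not called. Plin3, found in the cytosol and on growing droplets (ENSMUSG00000024197, chromosome 17, 56277476 to 56292873, minus strand), had 92.3, 81.6 and 75.2 CPM in Ctrl and 70.3, 69.0 and 80.6 in IRF3-2D libraries. Its groups overlapped, with a log2 fold change of -0.18 (95% interval -0.43 to 0.07, and 0.27 with library totals alone). Plin4, a perilipin best known from fat and muscle (ENSMUSG00000002831, chromosome 17, 56100591 to 56109803, minus strand), had 57.3, 85.0 and 71.4 CPM in Ctrl and 41.2, 58.7 and 59.0 in IRF3-2D libraries. Its groups overlapped too, with a log2 fold change of -0.43 (95% interval -0.87 to 0.01, and 0.03 with library totals alone), and its exons overlap Hdgfl2 on the other strand.

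Within each library the transcripts of Plin2 to Plin5 made up a different mixture in the 2 groups. Plin1, which is not in the set, was left out of the sum. Plin5 made up 67.5%, 61.0% and 64.1% of the summed level of Plin2 to Plin5 per kb in Ctrl, against 48.3%, 48.7% and 53.9% in IRF3-2D libraries. Plin3 made up 22.2% to 23.2% in Ctrl against 24.8% to 31.7% in IRF3-2D libraries, and Plin4 made up 9.13% to 15.2% and 11.8% to 13.6%. Plin2 made up 0.159% to 0.868% in Ctrl against 2.88% to 13.1% in IRF3-2D libraries, within the limit on its listed values above. The share of Plin5 was thus lower, and those of Plin2 and Plin3 higher, in every IRF3-2D library, while that of Plin4 overlapped. Shares of a sum depend on each other, so a share can rise without a rise in level. The level of Plin3 itself overlapped between the groups (log2 fold change -0.18, not called). The Plin2 to Plin5 ratio of counts, 0.00224 to 0.0135 in Ctrl against 0.0507 to 0.255 in IRF3-2D libraries, did not overlap either.

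Neither CIDE gene was called. Cideb, the CIDE gene of hepatocytes, which acts in the lipid loading of very low density lipoprotein (ENSMUSG00000022219, chromosome 14, 55754050 to 55758458, minus strand), had 203, 228 and 224 CPM in Ctrl and 178, 160 and 196 in IRF3-2D libraries. The IRF3-2D values were all below the Ctrl values, the highest (196) only just below the lowest Ctrl value (203). Its log2 fold change was -0.29 (95% interval -0.54 to -0.05, adjusted p = 0.0781 by edgeR), called with DESeq2 (-0.32, adjusted p = 0.0206) and turning to 0.16 with library totals alone. Exons of Cideb overlap Nop9 on the other strand. Cidec, known for droplet fusion in fat cells and in fatty liver (ENSMUSG00000030278, chromosome 6, 113424634 to 113435760, minus strand), had 18, 27 and 53 counts in Ctrl and 38, 18 and 32 in IRF3-2D libraries. These overlapped widely, and the log2 fold change of -0.45 had a 95% interval of -1.62 to 0.73, which includes changes in either direction. The highest Ctrl level was 2.82 times the lowest. Without Ctrl replicate 3 it was 0.04.

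**Figure D2:**
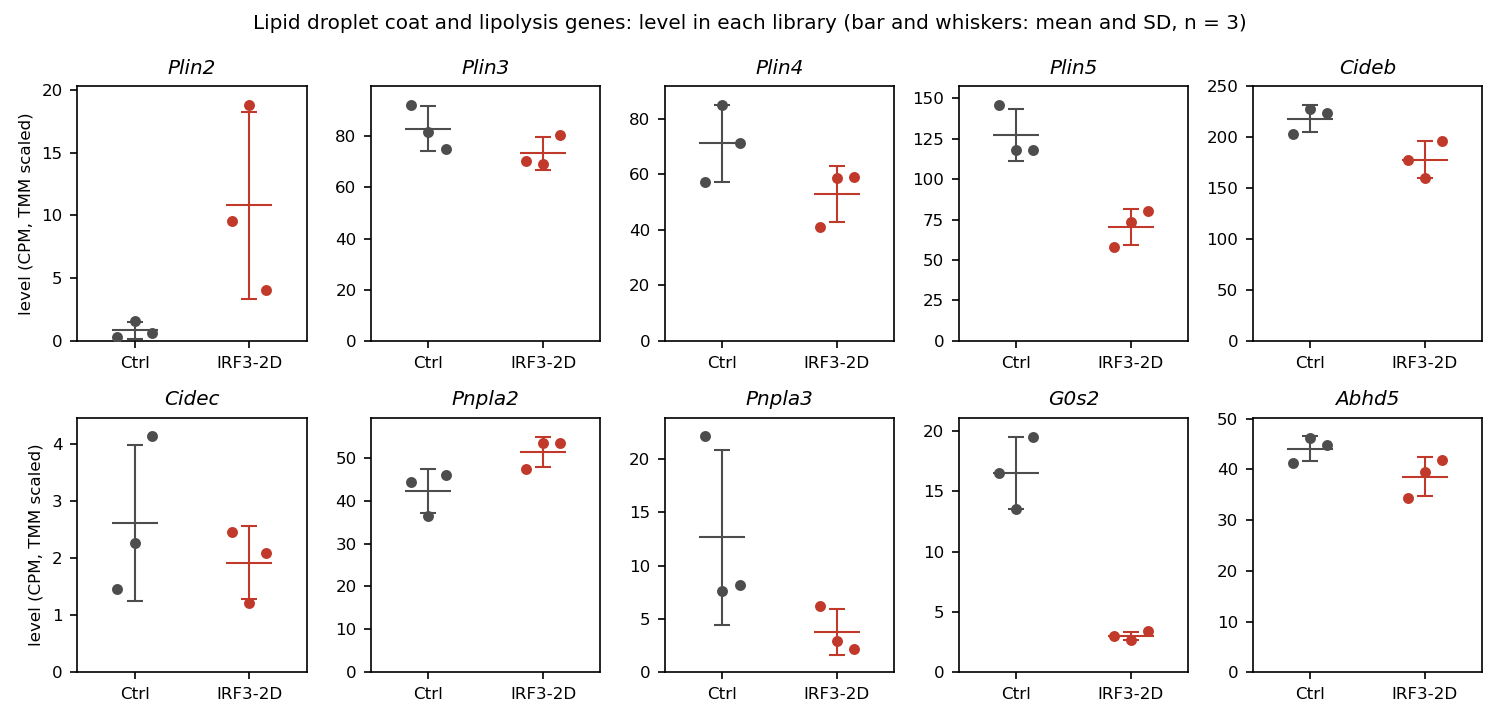
Level of each of the 10 genes in every library (CPM with TMM scaling, linear axes from 0, points are libraries, bars and whiskers the mean and SD of 3). The IRF3-2D points of G0s2 (2.71 to 3.41 CPM) and Plin5 (58.3 to 80.1) lie below all Ctrl points, and those of Plin2 (4.06 to 18.8) lie above them.

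Across the set, the groups did not overlap for 6 of the 10 genes, 2 higher (Plin2 and Pnpla2) and 4 lower (Plin5, Cideb, Pnpla3 and G0s2) in IRF3-2D liver. Over all genes tested 44.9% had no overlap, 23.7% higher and 21.2% lower. The direction of 4 genes depended on the scaling: Plin3, Plin4, Cideb and Abhd5 had log2 fold changes from -0.43 to -0.18 with TMM and from 0.03 to 0.27 with library totals alone, none of them called under either. G0s2, Pnpla3 and Plin5 were lower, and Plin2 and Pnpla2 higher, under both scalings. Cidec was at 0.00 with library totals alone.

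**Figure D3:**
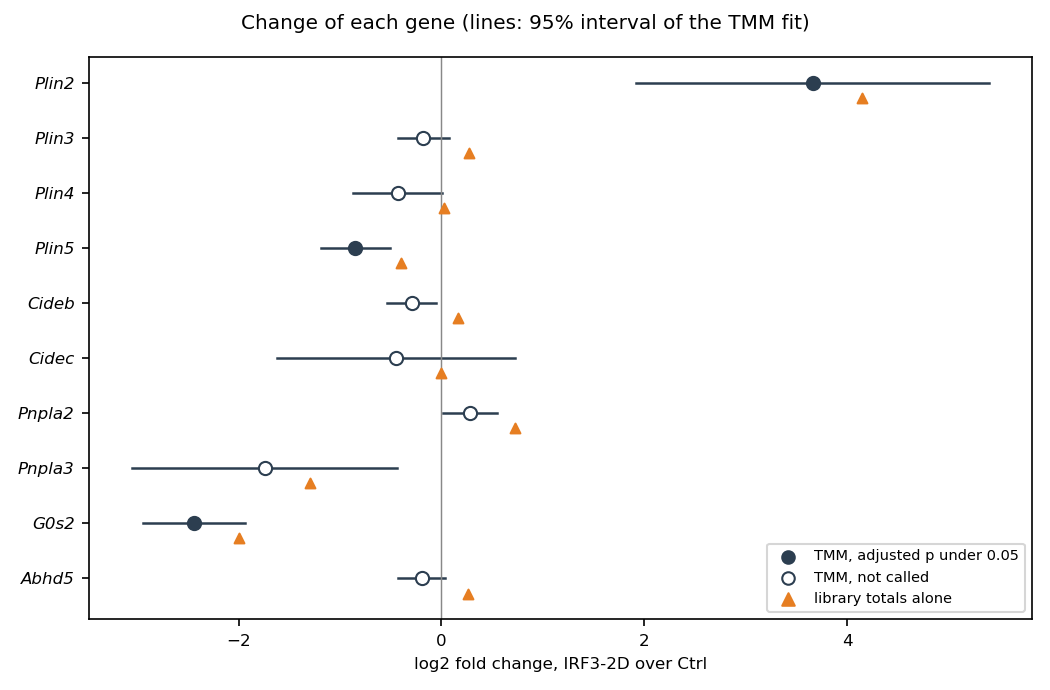
Log2 fold change of each of the 10 genes (circles, with lines for the 95% interval of the edgeR fit with TMM scaling; filled circles have an adjusted p under 0.05) and the same value with library totals alone (triangles). G0s2 (-2.44) and Plin5 (-0.85) are called lower and Plin2 (3.66) higher, and each triangle lies to the right of its circle.

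Levels can be compared between genes only per length, taken here as CPM per kb of the longest coding transcript. In Ctrl liver Cideb stood highest at 180 ± 11.4 CPM per kb (SD, n = 3), followed by Plin5 at 64.2 ± 8.17, with no overlap between them or with the genes below. Then came Plin3 (22.8), G0s2 (18.9), Pnpla2 (16.1), Abhd5 (14.0), Plin4 (12.4) and Pnpla3 (9.63 CPM per kb), where each overlapped with the next. Cidec (1.53) and Plin2 (0.45 CPM per kb) were lowest, apart from the rest and only just from each other, since the lowest Cidec value was 0.855 and the highest Plin2 value 0.846. In IRF3-2D liver Cideb (147 ± 14.8) and Plin5 (35.6 ± 5.62 CPM per kb, SD, n = 3 each) kept the first places, again apart. G0s2 moved from rank 4 to rank 8, at 3.48 CPM per kb, where its range overlapped with those of Plin2 above it and Pnpla3 below it. Plin2 moved from rank 10 to rank 7, at 5.72 CPM per kb with a range of 2.15 to 9.94.

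Of 19 further genes of droplet coat, biogenesis and droplet-resident proteins, 16 were tested, 1 was called higher, 2 lower and 13 were not called, beside 13.2% called higher and 13.1% lower over all genes tested. Their median log2 fold change was -0.14. Hsd17b13, a droplet-resident enzyme of hepatocytes, rose 2.30-fold from 421 ± 69.1 to 970 ± 109 CPM (SD, n = 3 each; adjusted p = 0.0014 by edgeR). Fitm2, which acts in the budding of droplets from the endoplasmic reticulum, fell 1.77-fold (adjusted p = 0.00333), and Vps13c, a lipid transfer protein, fell 1.55-fold (adjusted p = 0.00296), a call lost with library totals alone (log2 fold change -0.18). With library totals alone 8 of the 16 were higher and 1 lower, beside 4500 higher and 571 lower of all 10802 genes tested. Cidea, Hsd17b11 and Tmem159 did not pass the filter on low counts.

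Other neutral lipid hydrolases were called lower in larger number. Of 16 listed genes, Abhd12 had no row and is not analysed here, and Pnpla7 was below the filter. Among the 14 genes tested, 8 were called lower, 0 higher and 6 were not called by edgeR (1 was higher at an unadjusted p under 0.05; DESeq2 called 1 higher and limma-voom 0), with a median log2 fold change of -0.68, beside 13.1% of all genes tested called lower. Mgll, which splits the monoglyceride left at the end of lipolysis, fell 4.85-fold, from 273 ± 57.6 CPM in Ctrl to 56.3 ± 11.2 CPM (SD, n = 3 in both groups; adjusted p = 0.000512 by edgeR). Abhd6, another monoglyceride lipase, fell 3.82-fold. The carboxylesterases Ces1d (2.71-fold), Ces1e (3.94-fold) and Ces1f (2.56-fold), which hydrolyse neutral lipid in the endoplasmic reticulum, fell as well. They belong to a cluster of similar genes, so how reads fell among them is uncertain. Ces1g of the same cluster, named after its values were seen, stood the other way at 230, 333 and 396 CPM in Ctrl and 429, 437 and 473 in IRF3-2D libraries, with no overlap. Its log2 fold change of 0.48 was not called by edgeR (adjusted p = 0.104), but it was called with DESeq2 (0.45, adjusted p = 0.0479), with library totals alone (0.94, adjusted p = 0.00485) and without Ctrl replicate 3 (0.66, adjusted p = 0.048). Ddhd2, a triglyceride hydrolase best known from brain, fell 1.57-fold, a call lost with library totals alone (log2 fold change -0.19). With library totals alone 5 of the 14 were lower and 2 higher, beside 571 lower and 4500 higher of all 10802 genes tested. With TMM, the count called lower was 6 without IRF3-2D replicate 1, and 7 without Ctrl replicate 2 or IRF3-2D replicate 2. Such a fall was not particular to the hydrolases. Of 8 hepatocyte markers tested 7 were called lower and 1 higher, with a median log2 fold change of -1.06. Lipe, the hormone-sensitive lipase that takes over after the Pnpla2 product, had 14, 21 and 40 counts in Ctrl and 2, 94 and 6 in IRF3-2D libraries, too uneven to show a change in either direction (log2 fold change 0.18, SE 1.2).

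Among 13 transcription factors and coactivators known to act on hepatic lipid genes, all tested, 6 were called lower, 1 higher and 6 were not called, beside 13.1% called lower and 13.2% higher over all genes tested. The median log2 fold change was -0.40. Ppara, the gene of PPARalpha, had 131, 131 and 146 CPM in Ctrl and 48.1, 49.9 and 57.5 in IRF3-2D libraries, 2.62-fold lower with no overlap (adjusted p = 0.000169 by edgeR). Its coactivator gene Ppargc1a rose 2.22-fold from 43.2 ± 7.16 to 95.8 ± 4.42 CPM (SD, n = 3 each; adjusted p = 0.00105). Rxra, the gene of its binding partner, had 102, 162 and 88 counts in Ctrl and 11, 19 and 29 in IRF3-2D libraries, 7.35-fold lower. The listed level of Rxra was low (mean of 9.61 CPM in Ctrl). As with Plin2, it may cover only part of the RNA of the gene, which was not tested. The lipogenic factors Mlxipl (2.02-fold) and Srebf1 (1.67-fold) fell too, as did Creb3l3 (1.60-fold), a factor of fasting metabolism whose call was lost with library totals alone (log2 fold change -0.23). The remaining call was Hnf4a (log2 fold change -0.40, adjusted p = 0.0472 by edgeR). It was lost without any 1 library but Ctrl replicate 1, and the log2 fold change was 0.05 with library totals alone. The count called lower was 5 in each of those fits that left out 1 library, and 2 were higher without IRF3-2D replicate 3. With library totals alone 4 of the 13 were lower and 4 higher, beside 571 lower and 4500 higher of all 10802 genes tested.

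**Figure D4:**
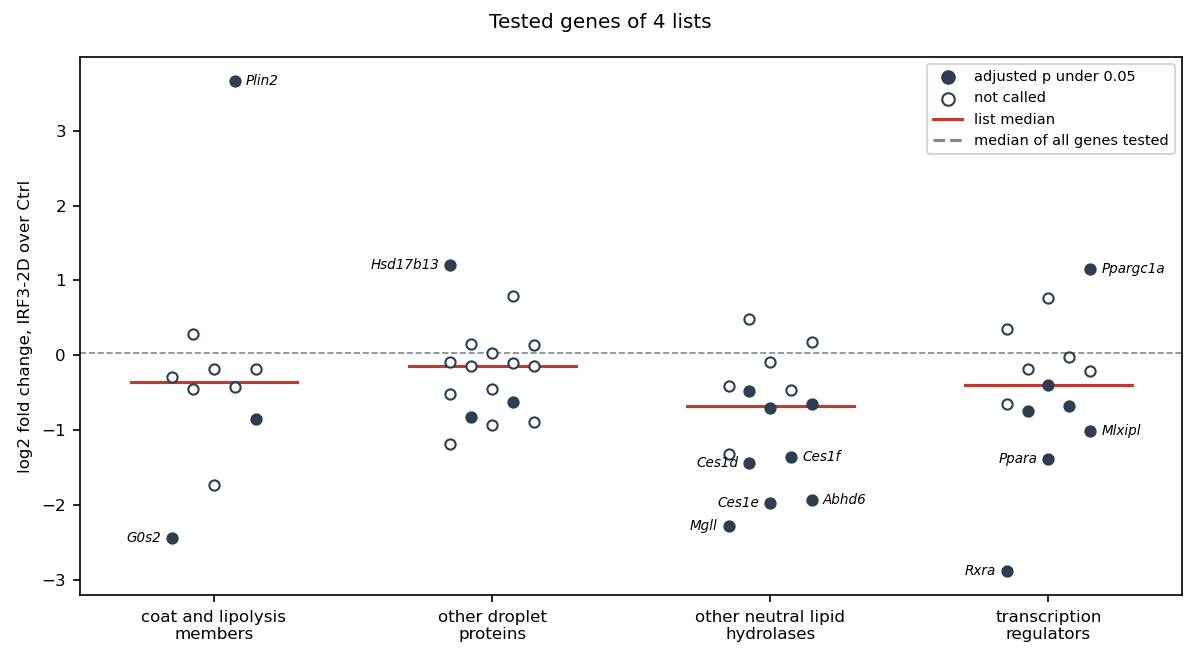
Log2 fold change of each tested gene in 4 lists (filled circles have an adjusted p under 0.05, red lines are list medians, the dashed line is the median of all genes tested, names are given for called genes that changed at least 2-fold). The medians are -0.36, -0.14, -0.68 and -0.40 from left to right, beside 0.03 for all genes tested.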

How the data were processed

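Poly-A RNA of 6 liver samples was sequenced from strand-specific libraries, per the labels' protocols. The authors deposited 1 table of estimated counts per gene, not normalized. The submitters' processing notes name Salmon 1.2.1, GRCm38 and mm10 but no role for them; which annotation, transcript summing, strand setting and filters were used is not given in the sources used here. All values were whole numbers and were used as they stand. Groups and replicate numbers came from the sample titles, and columns were matched by library name.

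Of 20894 identifiers, 20817 were matched to a GENCODE M21 symbol; the other 77 made up 0.022% or less of any library. Depth was 12054096 to 14830629 counts per library, and 3 counts, the limit that a count of 0 allows for counting error only, are 0.202 to 0.249 CPM. Genes passing filterByExpr were fitted with edgeR 4.0.16 (R 4.3.3) by its quasi-likelihood F-test, scaled with TMM and with no term but the group, with Benjamini-Hochberg adjustment and a threshold of 0.05. Standard errors come from the fold change and its F statistic, and 95% intervals from the moderated degrees of freedom. The fit was tested on simulated counts. Alternatives were RLE and upper-quartile scaling, library totals alone, DESeq2 1.42.0, limma-voom (limma 3.58.1), no filter, a mean count of at least 50, the replicate number as a block, and leaving out each library.

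The members, gene lists, ratios and promoter motifs were chosen with earlier results of these data known. Named were all 10 members, Irf3, and up to 6 called genes per list with the smallest adjusted p. Other names (Lipe, Ces1g, Ttr, Alb, Adipoq, Cfd, Fabp4, Lep, Retn, Pdgfrb, Cd68, Adgre1, Csf1r, Hilpda, Hnf4a, Plin1 and Col1a1) were chosen after their values were seen.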

Additional observations from a re-analysis of the deposited data

How the results depend on the processing

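The calls of G0s2 held under every alternative tried, with log2 fold changes from -2.57 to -2.0. With library totals alone 4500 genes were higher and 571 lower, and of the 10 members 2 were higher and 1 lower: Pnpla2 was then called (0.73), Plin5 was not (-0.40), and Plin3 (0.27), Plin4 (0.03), Cideb (0.16) and Abhd5 (0.26) changed sign, in a table whose median was 0.49. Limma-voom called 0 members higher (Plin2 3.62; 2 were higher at an unadjusted p under 0.05, and edgeR and DESeq2 called 1 each). DESeq2 called 4 members lower, adding Cideb (-0.32) and Pnpla3 (-1.78), and a mean count of at least 50, under which Cidec was not tested, added Pnpla3 (-1.75). With the replicate block 4 members were lower, adding Plin4 (-0.43) and Pnpla3 (-1.72), and 1038 genes were higher and 1128 lower. Deviations of same-numbered libraries correlated at 0.08, -0.10 and 0.08, and not every library correlated best with its own number. The labels do not say what a number stands for. So few libraries cannot show whether same-numbered samples share a litter, batch or day.

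Leaving out 1 library at a time gave 851 to 1312 genes higher and 920 to 1363 lower; the higher count was 866 without IRF3-2D replicate 1 and 851 without IRF3-2D replicate 2, and the lower count was 920 without the latter. The members called higher stayed at 1 and those called lower ran from 2 to 3. Log2 fold changes ran from 3.00 to 4.47 for Plin2, -0.27 to -0.10 for Plin3, -0.56 to -0.28 for Plin4, -0.96 to -0.73 for Plin5, -0.38 to -0.22 for Cideb, -0.74 to 0.04 for Cidec, 0.18 to 0.35 for Pnpla2, -2.32 to -1.07 for Pnpla3, -2.57 to -2.30 for G0s2 and -0.27 to -0.12 for Abhd5. The log2 difference in ratio ran from 2.62 to 2.78 for Pnpla2 to G0s2, 2.12 to 2.41 for Abhd5 to G0s2, -2.50 to -1.55 for Pnpla3 to Pnpla2, 3.92 to 5.23 for Plin2 to Plin5 and -0.29 to 0.38 for Cideb to Cidec, which was negative without Ctrl replicate 3 (-0.29) or IRF3-2D replicate 2 (-0.14). Where a value changed, the cause was not tested. Counts were low for Plin2 in the Ctrl libraries (4 to 19) and for Cidec in all 6 (18 to 53), and their levels also spread widely within groups.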

Other observations

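Hilpda, a droplet protein that inhibits the lipase encoded by Pnpla2 and so acts beside G0s2, moved the other way in value: it had 60, 49 and 59 counts in Ctrl and 145, 131 and 81 in IRF3-2D libraries, with no overlap and a log2 fold change of 0.79 that was not called (adjusted p = 0.074 by edgeR). It was called with library totals alone (1.25, adjusted p = 0.0115) and without IRF3-2D replicate 3 (0.99, adjusted p = 0.0268). Plin1, the perilipin of fat cells, had 19, 28 and 22 counts in Ctrl and 12, 14 and 11 in IRF3-2D libraries, a log2 fold change of -1.19 that was not called (adjusted p = 0.0669). Both were named after their values were seen.

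Among the 3 IRF3-2D libraries, Plin2 (148, 277 and 62 counts) and the collagen gene Col1a1 (322, 503 and 193 counts) had the same order, while in Ctrl they did not (4, 19 and 8 against 155, 71 and 125 counts). Col1a1 was not called by edgeR (log2 fold change 1.25, adjusted p = 0.0608), but it was called with DESeq2 (1.22, adjusted p = 0.0121), with library totals alone (1.71, adjusted p = 0.0153) and without IRF3-2D replicate 3 (1.52, adjusted p = 0.0302). Col1a1 is among the 7 stellate cell markers tested. Of these edgeR called 1 lower and 0 higher with TMM, and their median log2 fold change was -0.07. Col1a1 was named after its values were seen, and 3 libraries allow no test of such an order.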
